A study of Caenorhabditis elegans with 3 samples.

Results

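Transthyretin-like genes of the nematode Caenorhabditis elegans, the ttr class, were compared between L3 larvae of the genotype glp-4 and a wild-type mixed reference. The members are all genes whose symbol is ttr followed by a number and that have a probe paired with that single gene in the platform annotation. This gave 48 of the 21632 probes and 45 of 14943 named genes, of which 3 genes had 2 probes each. All 48 probes were measured on all 3 arrays. The RefSeq annotation of assembly WBcel235 lists 59 ttr genes, and the 14 others, ttr-33 among them, were not analysed here. RefSeq gives ttr-4 as a pseudogene and the other members as protein-coding. Each of the 3 arrays, read in 2 channels, carried total RNA of one glp-4 L3 prep (prep 1, 3 or 4) together with the reference. The labels name no allele, temperature, strain or growth condition, and do not say whether the preps came from separate cultures, so the p-values cover only how far these 3 preps differed, possibly for technical reasons.

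Transthyretin of vertebrates is a blood and cerebrospinal fluid protein that carries thyroid hormone and, bound to retinol-binding protein, vitamin A. The transthyretin-like proteins of nematodes form a separate and much expanded family of small proteins, most with a signal peptide for secretion, and few have a known function. The best studied is TTR-52, a secreted protein that binds phosphatidylserine on the surface of dying cells and links them to CED-1, the receptor of the engulfing cell. The product of glp-4 charges tRNA with valine, and temperature-sensitive alleles of the gene leave animals with few germ cells when they are grown warm.

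Values are log2 ratios, each array centred on its median, read as glp-4 L3 over reference; this is the likely direction, because the labels put glp-4 in channel 2 and germline genes lay below 0, and if it ran the other way every sign below would turn. Mutant and reference differed in stage as well as genotype, so these cannot be told apart, and in whole animals fewer cells of a type cannot be told apart from less RNA per cell. Of a list of 18 germline markers, 18 were lower in glp-4 L3, with list medians of -1.74, -1.99 and -2.45 with preps 1, 3 and 4; their side was part of the reason for the direction and is not independent of it. Of 14 intestinal markers 10 were higher and no marker was lower by limma, and of 8 body wall muscle markers 6 were higher and again no marker was lower; in both lists 0 were lower at a raw p under 0.05. None of 7 pharyngeal markers passed by limma, with 1 higher and 0 lower at a raw p under 0.05. Of 11 markers of hypodermis and seam 1 was higher and none lower, and of 16 neuronal markers 3 were lower and none higher. At a raw p under 0.05, 2 hypodermis and seam markers were higher and 1 was lower. Among the neuronal markers 0 were higher and 5 lower at that limit. Shares over all features were 8.26% higher and 8.37% lower by limma, and 17.1% and 18.2% at a raw p under 0.05.

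As a family the ttr genes had a median near 0, and a displacement was not tested. The median over the 45 genes was -0.02, with array medians of 0.04, 0.02 and -0.22 for preps 1, 3 and 4. Over all 19580 features tested it was 0, a value that the centring of the arrays largely sets. Over the other named genes it was 0.03, with array medians of 0, 0.04 and 0.05. The mean was above 0 for 22 genes and below 0 for 23. By limma, with Benjamini-Hochberg adjusted p under 0.05 over all features, 4 ttr genes were lower in glp-4 L3 and 1 was higher, and 40 did not pass. Over all features 8.37% were called lower and 8.26% higher, or 16.6% in both directions, so the members' 5 calls (11.1%) were no more frequent than the background. For 29 of the 45 genes the sign agreed between the 3 arrays, 14 above and 15 below 0; over all features 58.4% did so, 29.1% above and 29.4% below. A mean within a 2-fold difference was found for 37 genes (82.2%, against 83.8% over all features), while 6 lay at least 2-fold below the reference and 2 at least 2-fold above it.

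**Figure D1:**
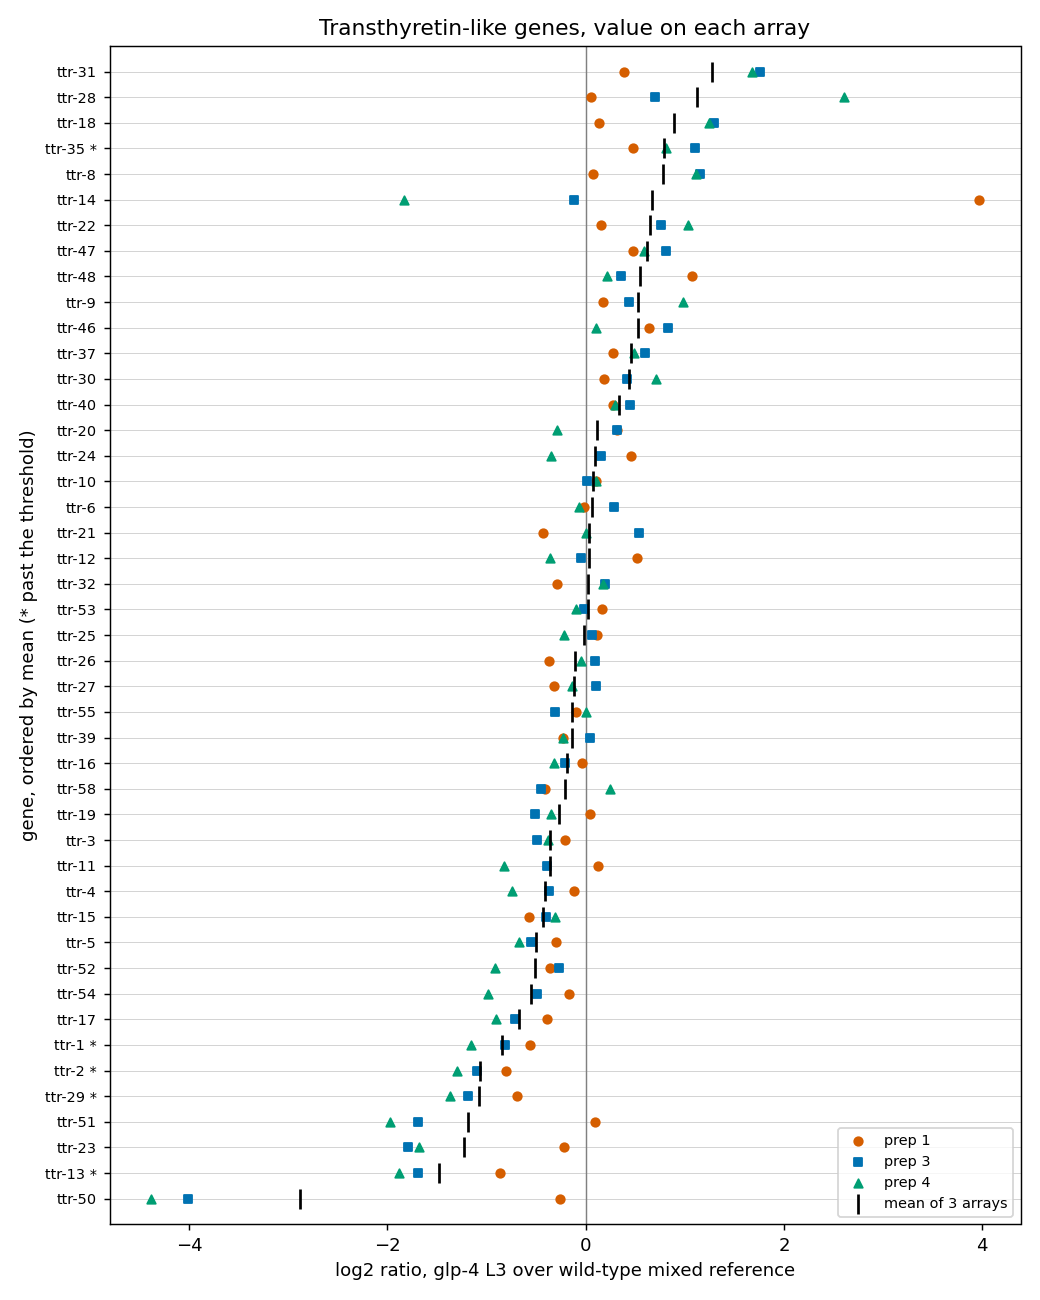
Log2 ratio of glp-4 L3 over the wild-type mixed reference for the 45 transthyretin-like genes, ordered by their mean, with a symbol for each of preps 1, 3 and 4 and a black bar for the mean; an asterisk marks the 5 genes past the limma threshold. Most genes sit within 1 unit of 0, and prep 1 lies far from the other preps for ttr-14 and ttr-50.

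The 4 lower genes were ttr-13, ttr-29, ttr-2 and ttr-1. For ttr-13 (Y44A6B.4) the log2 ratios were -0.87, -1.69 and -1.88 with preps 1, 3 and 4. The mean of -1.48 ± 0.54 (SD, n = 3) is 2.79-fold lower in glp-4 L3 (limma adjusted p = 0.0178). All 3 arrays lay below 0, prep 1 least. For ttr-29 (R90.4) they were -0.69, -1.19 and -1.37, with a mean of -1.08 ± 0.35 (limma adjusted p = 0.0236). For ttr-2 (K03H1.4) they were -0.80, -1.10 and -1.30, with a mean of -1.07 ± 0.25 (limma adjusted p = 0.0184). For both genes all arrays lay below 0, and prep 1 was again the nearest to it. For ttr-1 (K03H1.6), which lies next to ttr-2 on chromosome III, they were -0.56, -0.81 and -1.16, with a mean of -0.84 ± 0.30 (limma adjusted p = 0.0397), or 1.80-fold lower.

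The only gene called higher was ttr-35 (F22A3.2), with log2 ratios of 0.47, 1.10 and 0.81 with preps 1, 3 and 4. Its mean of 0.79 ± 0.31 amounts to a 1.73-fold higher level in glp-4 L3 and lay close to the threshold (limma adjusted p = 0.0484). On the other side of the threshold, ttr-31 (F58A3.5) had the highest mean of the family, 1.27 ± 0.77 from 0.38, 1.76 and 1.68, at a limma adjusted p of 0.0506. It was above 0 on all 3 arrays, but low with prep 1. The difference between these genes was not tested.

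The calls depended on the preps. Without prep 1, 7 ttr genes were higher and 9 lower, where 16.3% and 17.5% of all features were called in these directions (33.9% in all). The 7 were ttr-35, ttr-31, ttr-18, ttr-8, ttr-22, ttr-28 and ttr-47, and the 9 were ttr-13, ttr-29, ttr-2, ttr-1, ttr-17, ttr-23, ttr-50, ttr-51 and ttr-54. Without prep 3 no ttr gene passed by limma, where 2.36% of all features did (1.05% higher and 1.31% lower). Without prep 4 none passed by limma either, against 6.63% of all features (3.36% higher and 3.28% lower). At a raw limma p under 0.05 and with all preps, 8 members were higher and 12 lower, against 17.1% and 18.2% of all features. The 5 genes called with all preps had the same sign on every array, but the calls rest on these same arrays, so this is no separate support.

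Of the other genes with low means, ttr-50, ttr-51 and ttr-23 varied more between preps than those called, and did not pass. This does not hold for all: ttr-17, at -0.67 ± 0.26, had a smaller SD than ttr-1 and did not pass either (limma adjusted p = 0.0634). The lowest mean of the family was that of ttr-50 (F58B3.9), with log2 ratios of -0.26, -4.01 and -4.39 with preps 1, 3 and 4, a mean of -2.89 ± 2.28 and a limma adjusted p of 0.0707. It was far below the reference with preps 3 and 4 and near 0 with prep 1. A like split was seen for ttr-51 (JC8.8), at 0.09, -1.69 and -1.97, with a mean of -1.19 ± 1.12 (limma adjusted p = 0.115). For ttr-23 (T21C9.8) the values were -0.22, -1.79 and -1.68, with a mean of -1.23 ± 0.87 (limma adjusted p = 0.0693). Without prep 1, ttr-50, ttr-51 and ttr-23 passed, at means of -4.20, -1.83 and -1.73 (limma adjusted p = 0.000875, 0.00293 and 0.00301). In that setting 17.5% of all features were called lower. Leaving out prep 1 keeps only the preps with which these genes were low, so these p-values are no separate support.

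On the upper side, ttr-18 (B0334.1) had log2 ratios of 0.13, 1.30 and 1.25 with preps 1, 3 and 4, with a mean of 0.89 ± 0.66 (limma adjusted p = 0.0881). A similar course was seen for ttr-8 (R13A5.6), at 0.07, 1.15 and 1.12. Here too prep 1 was close to 0 while the others were near each other. The values of ttr-28 (R90.3) were spread over all preps, at 0.06, 0.70 and 2.60, with a mean of 1.12 ± 1.32 (limma adjusted p = 0.17). For ttr-47 (H14N18.3) the preps lay closer together, at 0.47, 0.81 and 0.59, with a mean of 0.62 ± 0.17 (limma adjusted p = 0.0633).

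The least repeatable member was ttr-14 (T05A10.3), with log2 ratios of 3.97, -0.11 and -1.84 with preps 1, 3 and 4. Its mean of 0.67 ± 2.98 did not pass (limma adjusted p = 0.671) and describes none of the 3 arrays. By SD over the arrays it ranked 22 of the 19580 features, and ttr-50 ranked 86. Without prep 1 its mean was -0.97, on the other side of 0, and it did not pass (limma adjusted p = 0.127). The gene has 2 probes, and they gave nearly the same values, 3.83 and 4.11 with prep 1, -0.05 and -0.18 with prep 3, and -1.93 and -1.74 with prep 4. Both probes thus showed the spread between the preps.

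In 27 of the 45 genes the value nearest to 0 was that of prep 1, a share of 60% against 56.4% over all features. Over the ttr genes the log2 ratios of preps 1, 3 and 4 had SDs of 0.72, 0.97 and 1.13, close to the 0.70, 0.95 and 1.12 over all features. Preps 3 and 4 had the same sign for 37 of the 45 genes (82.2%, against 81% over all features). Across the 45 genes the Pearson correlation between preps 3 and 4 was 0.90, between preps 1 and 3 it was 0.30 and between preps 1 and 4 it was 0.07. Over all features these were 0.84, 0.66 and 0.61. Those with prep 1 rested in part on ttr-14, without which the 3 values over the ttr genes were 0.93, 0.54 and 0.45. Spearman's rho over the 45 genes was 0.89 for preps 3 and 4, 0.62 for preps 1 and 3 and 0.44 for preps 1 and 4, against 0.82, 0.56 and 0.55 over all features. All arrays share the reference RNA, and the array titles of preps 3 and 4 share letters and an apparent date that differ in the title of prep 1, so these correlations are a description. Differences of prep 1 from the others cannot be told apart from that split.

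A difference of at least 3 log2 units above both other preps was seen with prep 1 for 74 of the 19580 features, and ttr-14 and ttr-50 were among them. Of the 48 named genes in that set, 17 were numbered collagens, a share not set against that over all named genes. They included col-19, a collagen gene known as a marker of the adult cuticle, at 1.83, -2.78 and -3.06 with preps 1, 3 and 4. The set also held the yolk protein gene vit-6, at -0.53, -4.30 and -4.24, a course close to that of ttr-50, and bli-1, a collagen gene of the adult cuticle, at 3.66, 0.46 and 0.11. The medians of the oocyte, eggshell and yolk list (14 of 15 lower, none higher) were -3.08, -4.27 and -4.13 with preps 1, 3 and 4, and those of the sperm list (12 of 17 lower, none higher) -1.20, -2.25 and -2.97; at a raw limma p under 0.05, 0 genes of either list were higher. Members of the oocyte, eggshell and yolk list did not all follow its medians: vit-6 and perm-4 were highest with prep 1, cpg-1 and oma-1 lowest. The part of these differences between preps in the values of ttr-14 and ttr-50 was not tested. The genes col-19, bli-1 and vit-6 were picked out of the set by hand, with the values already known. Whether the preps differed in stage was not tested. The opposite difference, prep 1 at least 3 units below both, was seen for 13 features and for 0 ttr genes.

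**Figure D2:**
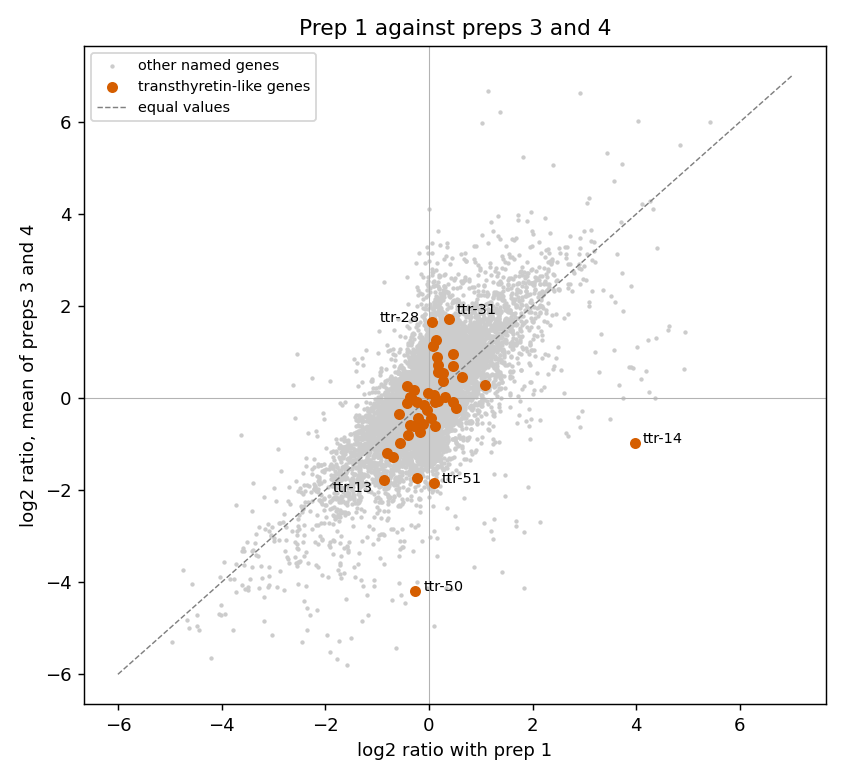
Log2 ratio with prep 1 (horizontal) against the mean of preps 3 and 4 (vertical), for the 45 transthyretin-like genes (orange) and the other named genes (grey); the dashed line marks equal values. The orange points lie in the bulk of the grey ones except ttr-14, at 3.97 with prep 1, and ttr-50, at -0.26 with prep 1.

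The other members with 2 probes, ttr-37 and ttr-10, gave values of opposite sign from their probes. For ttr-37 (F21E9.3) the first probe had log2 ratios of 0.89, 1.60 and 1.26 with preps 1, 3 and 4, and the second had -0.34, -0.40 and -0.29. Tested alone, the first was higher in glp-4 L3 at 1.25 ± 0.36 (limma adjusted p = 0.0169) and the second was at -0.34 ± 0.05 (limma adjusted p = 0.19). Each probe repeated well over the preps, so their gap was larger than the spread between arrays. The mean over both probes, 0.45 ± 0.17, did not pass (limma adjusted p = 0.125) and stands for neither. For ttr-10 (F19F10.4) the probes were at 0.50, 0.64 and 0.45, and at -0.30, -0.61 and -0.24, and neither passed alone (limma adjusted p = 0.0859 and 0.181). The gene mean of ttr-10, 0.07 ± 0.05, had a small SD because these values cancelled. Where the probes lie in the genes is not given in the sources used here.

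**Figure D3:**
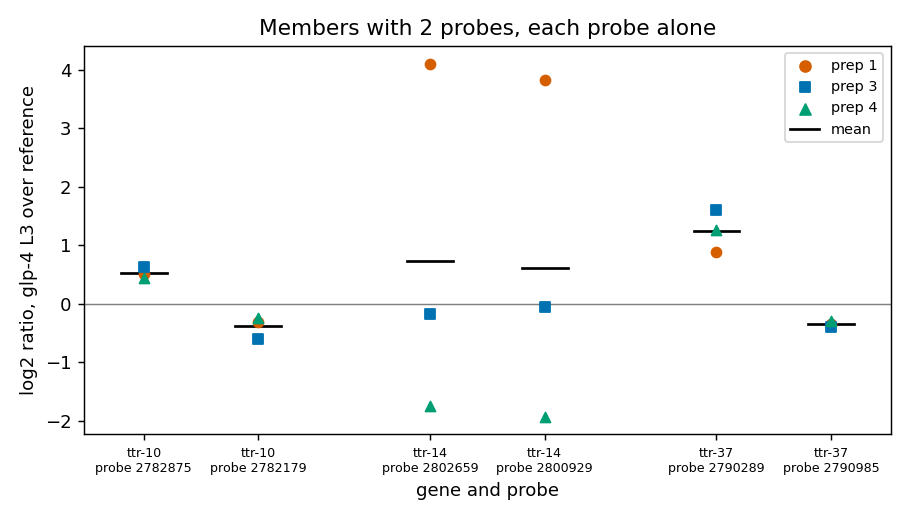
Log2 ratio of glp-4 L3 over the reference for each probe of the 3 members with 2 probes, with a symbol for each of preps 1, 3 and 4 and a black bar for the mean. The probes of ttr-14 fall together on each array, and those of ttr-37 (means 1.25 and -0.34) and ttr-10 (0.53 and -0.38) lie on opposite sides of 0.

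Many ttr genes lie beside each other. By the order of protein-coding genes in RefSeq WBcel235, 20 of the 45 formed 8 runs with at most 2 other coding genes between members. The other 25 lay outside such runs. The 14 ttr genes not analysed were not counted as members, so some of the 25 may lie beside one of them. In the run of ttr-4, ttr-3, ttr-2 and ttr-1 on chromosome III, all 4 means were below 0, from -1.07 to -0.36, and the last 2 passed. The others of that run were lower than 0 on all 3 arrays without passing, ttr-4 at -0.12, -0.37 and -0.75, and ttr-3 at -0.21, -0.49 and -0.38 with preps 1, 3 and 4. Neighbouring genes of this kind can be similar in sequence, and sharing of signal between their probes was not tested.

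Another run did not move as a block. The adjacent genes ttr-27, ttr-28 and ttr-29 on chromosome V had means of -0.12, 1.12 and -1.08, a span of 2.20, the widest of the 8 runs. With prep 4 they were at -0.13, 2.60 and -1.37. The run of ttr-24, ttr-25 and ttr-26 on the same chromosome stayed near 0, with means from -0.11 to 0.09. Over the 9 pairs of ttr genes with no coding gene between them the median absolute difference of their means was 0.57, and over all 990 pairs of members it was 0.67.

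**Figure D4:**
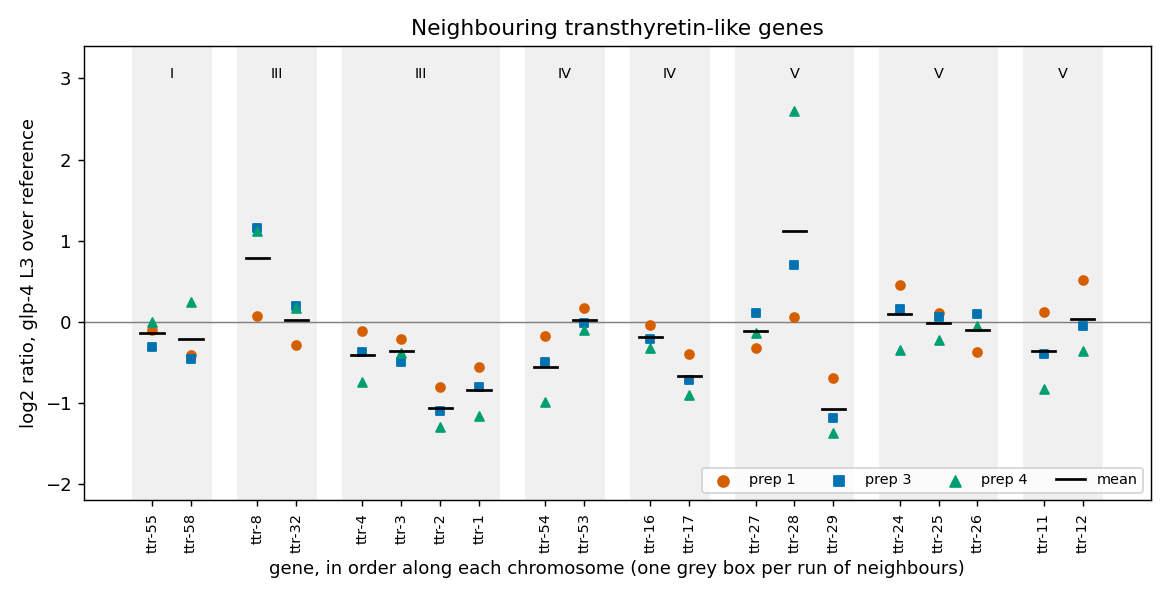
Log2 ratio of glp-4 L3 over the reference for the 20 transthyretin-like genes in 8 runs of neighbours, in order along each chromosome (Roman numerals), with a symbol for each of preps 1, 3 and 4 and a black bar for the mean. The means of the run ending in ttr-1 lie between -1.07 and -0.36, and the means of ttr-27, ttr-28 and ttr-29 span 2.20.

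By chromosome, all 7 members on X had means above 0, from 0.06 to 1.27 with a median of 0.55, and they included ttr-35 and ttr-31. They also included ttr-14, which was above 0 only with prep 1, and ttr-6, which was above 0 only with prep 3. The mean of ttr-37, also on X, came from probes of opposite sign. Of the 2186 other named genes on X, 63.4% had a mean above 0, with a median of 0.19. On chromosome III, 7 of 9 members had means below 0, with a median of -0.43, where 46.9% of 1875 other named genes were above 0. The 7 included the run of ttr-4, ttr-3, ttr-2 and ttr-1, whose probes may share signal, which was not tested. On chromosome V, which held 17 members, 9 were above and 8 below 0, where 56.6% of 3755 other named genes were above 0. These counts describe the members and carry no test.

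The gene ttr-52 (F11F1.7), of dying cell recognition, had log2 ratios of -0.36, -0.27 and -0.91 with preps 1, 3 and 4. It lay below 0 on all arrays, with a mean of -0.52 ± 0.35, and did not pass (limma adjusted p = 0.135); the unadjusted 95% interval of the mean reached from -1.02 to -0.01. Of 20 measured genes of a list of cell corpse recognition and engulfment, 1 was higher and none was lower, with a list median of 0. The share called was thus 5%, against 16.6% over all features. With raw limma p-values under 0.05, 4 lay above and 1 below the reference, against 17.1% and 18.2% of all features. The gene called higher was ina-1, an integrin alpha subunit, at 0.98, 1.51 and 1.29, with a mean of 1.26 ± 0.27 (limma adjusted p = 0.0121). The receptor gene ced-1 was at -0.25, -0.48 and -0.12, with a mean of -0.28 ± 0.18 (limma adjusted p = 0.279).

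Other classes that encode secreted proteins were set beside the ttr genes. In the fatty acid and retinol binding class (far), 1 of 8 genes was higher and 1 lower, with a median of 0.28. The neuropeptide-like class (nlp) had 21 of 53 genes lower and 2 higher, and its median was -0.60. In the C-type lectin class (clec), 27 of 197 genes were called higher and 11 lower, and the median was 0.10. The ttr class had a smaller share of genes past the threshold than each of these, 11.1% against 25%, 43.4% and 19.3% for far, nlp and clec, and the differences were not tested. Its median absolute log2 ratio of 0.45 was close to the 0.39 over all features.

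**Figure D5:**
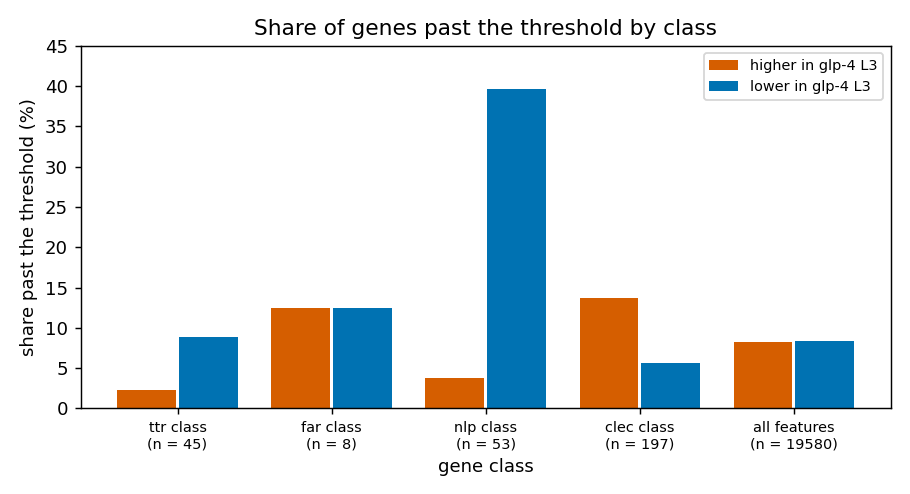
Share of genes past the limma threshold (%), higher and lower in glp-4 L3, for the ttr class and the far, nlp and clec classes, with all features tested at the right. The bars of the ttr class stand at 2.22% higher and 8.89% lower, against 8.26% and 8.37% for all features.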

How the data were processed

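The table deposited by the authors holds 21632 probes on 3 arrays. Its numbers were taken as log2 ratios of the 2 channels, since on each array 100% of the deposited values below 0 were the log2 of a whole number of thousandths (tolerance 0.01). How the authors scanned, background-corrected and normalized the arrays is not given in the sources used here. No intensities were used, so probes near background could not be told from others, and the number of arrays limits the precision. The annotation gave 1 gene for 16450 probes, several for 247 and none for 4935, with names updated through RefSeq.

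Arrays were median-centred, probes of a gene averaged per array, and the mean tested against 0 with limma 3.58.1 (R 4.3.3; two-sided, Benjamini-Hochberg over 19580 features measured on all arrays, threshold 0.05). The reference is 1 RNA, so its own spread is left out. The procedure was tested on simulated data. Protein and promoter sequences were not used here. Members and lists were chosen with earlier results of these data known. Named were ttr genes past the threshold, the 3 highest and 3 lowest means, ttr-52, and engulfment genes past it; others were chosen after their values were seen.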

Additional observations from a re-analysis of the deposited data

How the results depend on the processing

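With all preps, 1 ttr gene was higher and 4 lower, where 16.6% of all features passed in either direction. With arrays scaled to an equal median absolute deviation the counts were 2 and 4, and with quantile normalization 2 and 7. With features measured on at least 2 arrays they were 0 and 4, and with a robust variance prior 2 and 4. A 1.5-fold limit gave 0 and 0. Array weights gave 8 and 11, with a weight of 2.68 for prep 3 against 0.45 for prep 1. The shares of all features past the threshold under these settings, in the same order, were 15.5%, 20.1%, 16%, 17%, 5.23% and 41.4%. Leaving out a prep gave 0 to 7 higher and 0 to 9 lower genes, where 2.36% to 33.9% of all features passed. The causes were not tested. The family median moved by less than its spread between arrays under every alternative listed here. Values as deposited and each probe alone also gave 1 higher and 4 lower, but with each probe alone the higher one was a probe of ttr-37 and not ttr-35. With values as deposited 16.7% of all features passed, and with each probe alone 16.2% of all probes did.

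Signs turned for genes with means within 0.12 of 0, for ttr-14 and for a probe of ttr-37. With deposited values ttr-53 was at -0.001. With an equal median absolute deviation ttr-21, ttr-25 and ttr-32 were at -0.059, 0.024 and -0.051, and with quantile normalization at -0.04, 0.029 and -0.044. With array weights ttr-12, ttr-14, ttr-25, ttr-26, ttr-27 and ttr-53 were at -0.051, -0.007, 0.01, 0.013, 0.006 and -0.011. Leaving out 1 prep in turn gave ranges that crossed 0 for ttr-12 (-0.206 to 0.232), ttr-14 (-0.975 without prep 1 to 1.927 without prep 4), ttr-21 (-0.212 to 0.273), ttr-24 (-0.094 to 0.308), ttr-25 (-0.078 to 0.086), ttr-26 (-0.209 to 0.024), ttr-32 (-0.058 to 0.181), ttr-53 (-0.057 to 0.077) and ttr-6 (-0.045 to 0.132). A probe each of ttr-10 and ttr-37 was at -0.384 and -0.345. Each ratio already paired a prep with the reference on the same array, and a single group left no further pairing. With 3 arrays, duplicateCorrelation gave no value for the split in the array titles as a random block.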

Other observations

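The named genes closest to ttr-50 over the 3 arrays, by Euclidean distance of the log2 ratios and chosen after its values were seen, were W02D9.7 (-0.05, -3.91 and -4.35 with preps 1, 3 and 4), Y62H9A.4 (-0.23, -3.60 and -4.40), vit-6, ZC373.2 and mxt-1, at distances from 0.24 to 0.68. Those closest to ttr-14 were ptr-18, of the patched-related class (3.49, -0.27 and -0.63), C14F11.4 (2.68, -0.39 and -1.26), dao-4, btb-4 and H17B01.2, at distances from 1.30 to 1.79, so the gene nearest to ttr-14 was farther from it than any of the 5 from ttr-50. With 3 arrays such a likeness is a description of 3 values. Of the uterine lumen genes, ule-3, ule-4 and ule-5 were also at least 3 units higher with prep 1 than with both other preps, at -1.58, -6.24 and -5.35 for ule-3.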
